A study of Mus musculus with 8 samples.

Results

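The transcripts of 10 neuropeptide genes, Tac1, Penk, Pdyn, Calca, Calcb, Gal, Npy, Sst, Vip and Grp, were followed in the injured mouse spinal cord. They were taken by gene symbol from the deposited table of read counts, where each matched 1 of 54532 genes. RNA-seq had been made of spinal cord 7 days after spinal cord injury from 4 Tia1f/f samples, the control group, and 4 Tia1Nestin-CKO samples, the CKO group. All 8 samples were injured, and no uninjured cord was compared. Values of single libraries are given in the order of their numbers, 1 to 4, within each genotype. By its name the CKO is a conditional knockout of Tia1, an RNA-binding protein of stress granules, driven by Nestin, which neural progenitors express. Cells outside the Nestin lineage would keep Tia1. The labels give neither the age of the mice nor the cord segment, and they do not say that each sample came from a separate mouse, so p-values measure the spread between samples, which may be technical.

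Neuropeptides are signalling peptides cut out of larger precursors by convertases inside dense-core granules and released by neurons beside the fast transmitters. In the spinal cord they are best known from the dorsal horn, where primary sensory fibres and local interneurons use them in pain, itch and touch. Most act through G protein-coupled receptors. Motor neurons, preganglionic autonomic neurons and cells around the central canal make some of them too, and precursor mRNA lies mostly in the cell body, so mRNA of sensory fibres is found mainly in the dorsal root ganglia outside the cord.

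None of the 10 genes passed the test between genotypes. With edgeR's quasi-likelihood test over all 16537 genes tested, 0 of the 10 had an adjusted p under 0.05, where the background was 0.00% of genes. At an unadjusted p under 0.05 the count was again 0 of 10, beside a background of 1.42%, and in 0 of 10 did the groups not overlap, beside 1.19%. All 10 passed the filter on low counts. The mean was higher in CKO for 3 genes (Penk, Pdyn and Npy) and lower for 7. Their median log2 fold change was -0.14, and that of all genes tested was -0.01, with 48.1% of them higher. In bulk samples, fewer cells of a type and less RNA per cell cannot be told apart.

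The 10 genes together took 2724 to 4218 reads per library of 14752733 to 17802884, or, as library-scaled counts (CPM, after TMM scaling), 151 to 238 CPM in control libraries and 157 to 254 CPM in CKO libraries. Tia1 itself spanned 24.4 to 41.9 CPM among control and 23.4 to 32.1 CPM among CKO libraries, so the groups overlapped. All 8 markers of neurons had counts in every library, and their summed level was 1151 to 2896 CPM for control, highest in control 2, and 1188 to 1695 CPM for CKO. The library labelled control 1 had counts for 18884 genes, against 22434 to 23414 in the others.

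**Figure D1:**
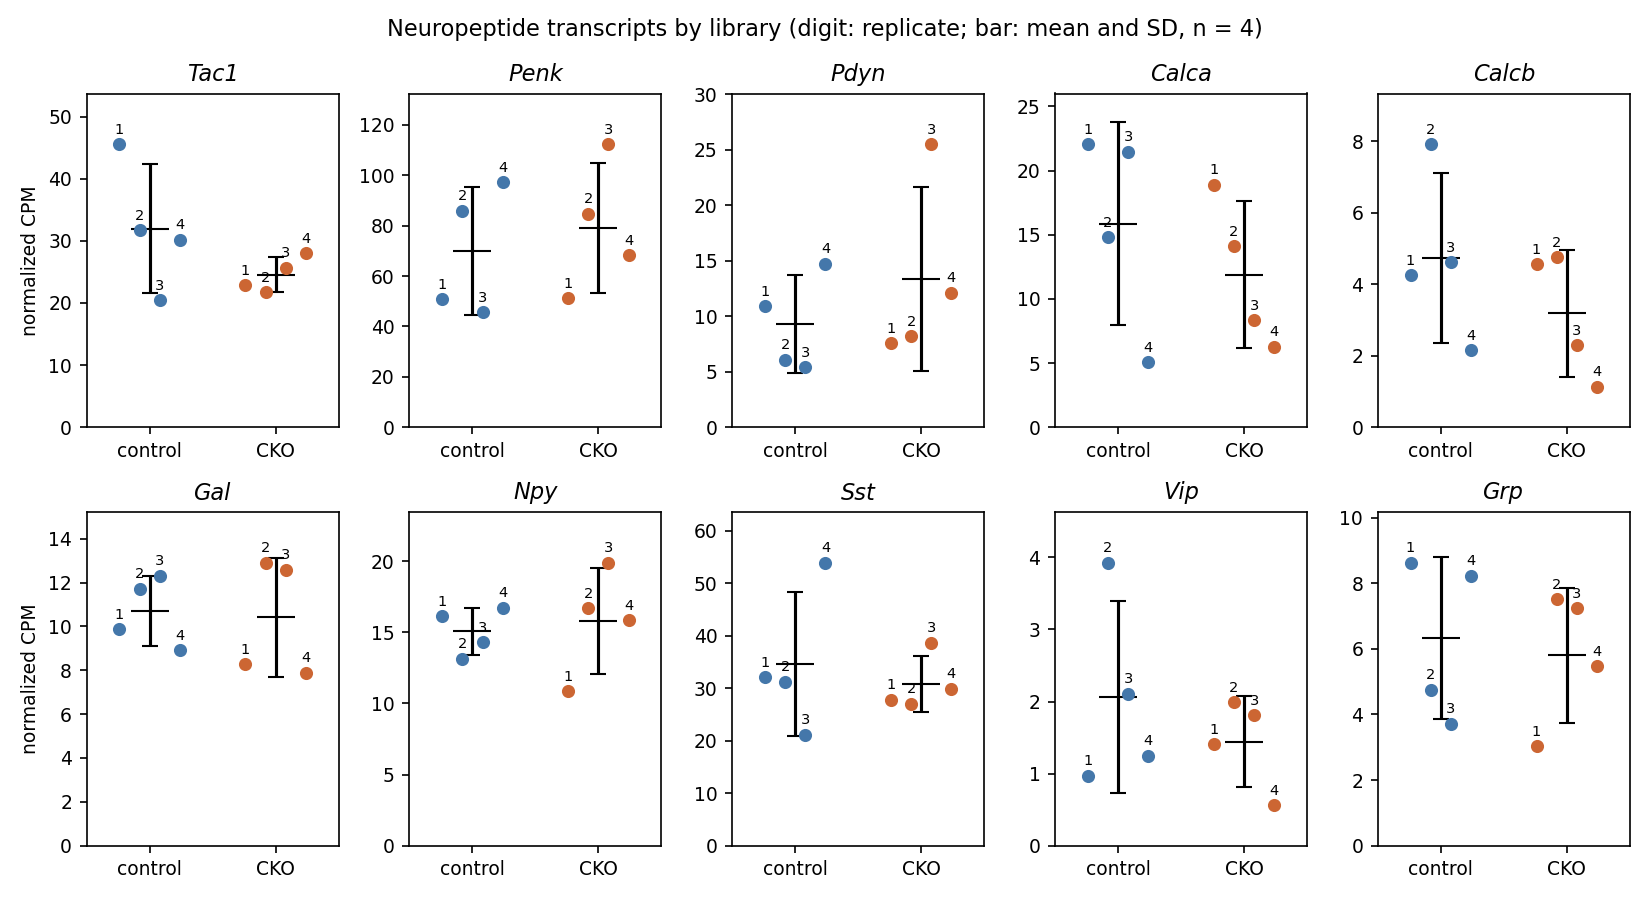
Normalized CPM (y axis) of each neuropeptide gene in the control (blue) and CKO (orange) libraries, with the replicate number at each point and the mean and SD of 4 libraries as a bar. In each of the 10 panels the points of the groups overlap; Penk reaches 112 CPM in CKO 3, and Calca runs from 5.05 to 22.0 CPM.

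Across genes, levels were compared per length as the deposited FPKM (fragments scaled by gene length and library size) over the 8 libraries. Penk, at 45.2 ± 14.7 FPKM (SD, n = 8), and Sst, at 44.9 ± 13.5 FPKM, were highest and could not be ordered, since Penk lay above Sst in 4 of 8 libraries. Npy followed at 27.0 ± 4.71 FPKM and Gal at 14.7 ± 2.88 FPKM, and both steps, Sst over Npy and Npy over Gal, held in 8 of 8 libraries, as did Gal over Tac1. Tac1 (8.23 ± 2.28 FPKM), Calca (8.16 ± 3.95 FPKM) and Grp (5.67 ± 1.95 FPKM) formed a middle group. Tac1 exceeded Calca in 5 of 8 libraries and Calca exceeded Grp in 5 of 8. Grp lay above Pdyn (3.88 ± 2.24 FPKM) in 7 of 8, while Pdyn and Calcb (3.10 ± 1.65 FPKM) changed places in 4 of 8. Vip, at 0.511 ± 0.298 FPKM, was lowest in all 8.

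The opioid precursors are Penk, which encodes proenkephalin, and Pdyn, which encodes prodynorphin. Their peptides share an opioid core and dampen transmission, the enkephalins mainly through delta and mu receptors and the dynorphins through kappa receptors. The core is shown because it is what Penk and Pdyn share. The coding sequence of Penk (GENCODE M21 on GRCm38, chromosome 4, minus strand, 268 codons) holds 6 copies of Met-enkephalin and 1 of Leu-enkephalin, and that of Pdyn (chromosome 2, minus strand, 248 codons) holds 3 of Leu-enkephalin, the start of each dynorphin-type peptide. Capitals mark the 5 codons of the core and lower case the codons beside it, which in the first 3 Penk copies and all 3 Pdyn copies encode a pair of basic residues on each side, where the convertases cut. The Penk pieces lie in coding sequence at 4134217 to 4134354 (Met-enkephalin) and 4133932 to 4133961 (Leu-enkephalin), and those of Pdyn between 129688064 and 129688258.
Penk Met-enkephalin copy 1: aagaagTACGGAGGCTTCATGaaacggtac
Penk Met-enkephalin copy 2: aaacggTACGGAGGCTTCATGaagaagatg
Penk Met-enkephalin copy 3: aagaggTATGGCGGCTTCATGaagaaggat
Penk Leu-enkephalin: aagaggTATGGGGGCTTCCTGaagcgcttt
Pdyn Leu-enkephalin copy 1: aaacgcTATGGCGGCTTTTTGcgcaaatac
Pdyn Leu-enkephalin copy 2: aaacgcTATGGGGGCTTCCTGcggcgcatt
Pdyn Leu-enkephalin copy 3: aagcgcTATGGTGGTTTCCTGcggcgtcag

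Penk (ENSMUSG00000045573, chromosome 4, 4133531 to 4138819) had 50.8, 86.0, 45.7 and 97.2 CPM in the control libraries, against 51.3, 84.7, 112 and 68.2 CPM in the CKO libraries. Libraries near 50 and libraries above 80 occurred in both genotypes, and the ranges overlapped almost wholly. The control mean was 69.9 ± 25.5 CPM and the CKO mean 79.1 ± 26.0 CPM (SD, n = 4), a log2 fold change of 0.18 (SE 0.29, 95% interval -0.46 to 0.82) with an edgeR adjusted p of 1.00. Without CKO 3, the highest library, it was -0.04. A noncoding gene on the other strand, A830012C17Rik, overlaps Penk and had 4 counts in all. Whether strand was used is not given, so this count cannot show that the overlap left the Penk count unchanged.

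Pdyn (ENSMUSG00000027400, chromosome 2, 129686565 to 129699844) had 10.9, 6.06, 5.38 and 14.8 CPM in the control libraries, against 7.59, 8.21, 25.5 and 12.1 CPM in the CKO libraries. CKO 3 stood above all others, and control 3 and control 2 were lowest. With means of 9.28 ± 4.40 and 13.4 ± 8.33 CPM (SD, n = 4), Pdyn had a log2 fold change of 0.53 (SE 0.43, interval -0.42 to 1.47, edgeR adjusted p = 1.00), and without CKO 3 this was 0.01. Its coefficient of variation over the 8 libraries, 57.8%, was above that of 97.6% of the 4563 tested genes within 2-fold of its mean CPM.

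Tac1 (ENSMUSG00000061762, chromosome 6, 7554879 to 7565834, plus strand) encodes the precursor of substance P and neurokinin A, excitatory tachykinins of nociceptive fibres and of dorsal horn neurons. The codons of substance P (GENCODE M21 on GRCm38, coding sequence at 7556726 to 7556773) are shown in capitals, followed in lower case by a glycine codon and a basic pair, the signal from which the amidated end of the peptide is made.
Tac1 substance P: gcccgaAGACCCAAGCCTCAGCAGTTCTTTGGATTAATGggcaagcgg

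Tac1 had 45.5, 31.7, 20.4 and 30.2 CPM in the control libraries, against 22.9, 21.7, 25.7 and 28.02 CPM in the CKO libraries. Control 1 was the highest library and control 3 the lowest, so all 4 CKO libraries lay inside the control range. The CKO libraries were close to each other, with a coefficient of variation of 11.5% against 32.3% in control; that difference in spread was not tested. The means were 32.0 ± 10.3 and 24.6 ± 2.82 CPM (SD, n = 4), a log2 fold change of -0.38 (SE 0.22, interval -0.87 to 0.11, edgeR unadjusted p = 0.117, adjusted p = 1.00). Without control 1 it was -0.16, and without control 3 it was -0.54 (edgeR unadjusted p = 0.015, adjusted p = 0.757). With all 8 libraries Tac1 had the smallest unadjusted p of the 10 genes, at rank 926 of all genes tested.

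Calca and Calcb encode the alpha and beta forms of calcitonin gene-related peptide (CGRP), a vasodilator and sensory transmitter of peptidergic nociceptors that motor neurons also make. Calca (ENSMUSG00000030669, minus strand, 114631478 to 114636357) and Calcb (ENSMUSG00000030666, plus strand, 114718643 to 114723365) are neighbours on chromosome 7, 82.3 kb apart and pointing away from each other. The gene count of Calca adds its CGRP and calcitonin transcripts. The longest stretch of coding sequence that both share without a difference is shown in capitals because it bears on how their reads can be told apart: it is 61 bases long, spans an exon junction and covers the start of the mature peptide. With its lower-case neighbours it lies at 114632526 to 114634484 in Calca and 114721696 to 114722048 in Calcb (GENCODE M21 on GRCm38), an intron included in each. Of all stretches of 50 bases in Calcb transcripts, 0.952% occur in Calca, and 0.715% the other way round, so few reads can belong to both; how such reads were counted is not given in the sources used here.
Calca: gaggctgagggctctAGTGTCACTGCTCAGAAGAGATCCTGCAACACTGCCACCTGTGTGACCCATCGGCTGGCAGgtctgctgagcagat
Calcb: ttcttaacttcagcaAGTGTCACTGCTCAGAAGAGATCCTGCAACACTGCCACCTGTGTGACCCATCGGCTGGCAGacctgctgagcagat

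Calca had 22.0, 14.8, 21.5 and 5.05 CPM in the control libraries, against 18.9, 14.1, 8.32 and 6.26 CPM in the CKO libraries. Control 1, control 3 and CKO 1 were high, control 4 and CKO 4 low, and the order did not follow genotype. The means were 15.8 ± 7.91 and 11.9 ± 5.73 CPM (SD, n = 4), a log2 fold change of -0.41 (SE 0.45, interval -1.40 to 0.57, edgeR adjusted p = 1.00). Without control 1 it was -0.21, and without CKO 1 it was -0.73. Its coefficient of variation, 48.5%, exceeded that of 95.7% of the 5002 tested genes of like level. Calcb had 4.24, 7.91, 4.61 and 2.16 CPM in the control libraries, against 4.55, 4.75, 2.29 and 1.13 CPM in the CKO libraries. It was likewise lowest in control 4 and CKO 4 of their groups. Its log2 fold change was -0.57 (SE 0.48, interval -1.64 to 0.49, edgeR adjusted p = 1.00), -0.20 without control 2, and 0.08 without both control 2 and CKO 4.

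Markers of sensory neurons of the dorsal root ganglia had counts in all 8 libraries, and 4 of 7 markers (Scn9a, Avil, P2rx3 and Pou4f1) were at 0 in none of them. The summed level of the 7 was 7.79, 12.8, 14.9 and 8.68 CPM in the control libraries, against 18.9, 7.31, 7.41 and 5.58 CPM in the CKO libraries. It was highest of its group in control 3 and in CKO 1, with control 2 next, but the markers did not move as 1. In control 3, 4 of the 7 were highest of the controls (Scn10a, Trpv1, Mrgprd and Avil), and in CKO 1 these and P2rx3 and Pou4f1, 6 in all, were highest of the CKO libraries. Scn10a, the sodium channel Nav1.8 of nociceptors, had 54 counts in control 3, 23 in CKO 1, 1 in control 4 and 0 elsewhere. Scn9a, the sodium channel Nav1.7, went the other way, with 2.27 CPM in control 3, the lowest of the controls, and 7.31 CPM in control 2, the highest of all libraries. Among the controls, P2rx3, an ATP receptor, was at 0.340 to 1.31 CPM, with 1.05 CPM in control 3. Calca was high in control 3 and CKO 1, but control 1, with the highest Calca, had 0 counts of Scn10a and of Trpv1, the capsaicin receptor, and 3 of the 7 markers at 0. The part of ganglion RNA in the Calca level was not tested. Without control 3 and CKO 1 the log2 fold change of Calca was -0.54 and that of Calcb -0.81. The summed level of 6 motor neuron markers ran from 28.1 to 57.5 CPM for control and from 25.6 to 38.6 CPM for CKO, lowest in control 4 and CKO 4, where Calca and Calcb were lowest too. Of these 6, Chat, the acetylcholine-synthesising enzyme, Slc18a3 and Mnx1 peaked in control 2, at 5.17, 9.45 and 1.07 CPM. That library had the highest Calcb. Slc5a7 was highest in control 1 at 24.6 CPM, and Prph and Isl1 in CKO 1 at 27.8 and 0.731 CPM. Nor did each marker share the low of the sum: of the controls, Prph was lowest in control 1 and Slc5a7 in control 3. The part of motor neuron RNA in the Calca and Calcb levels was not tested.

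**Figure D2:**
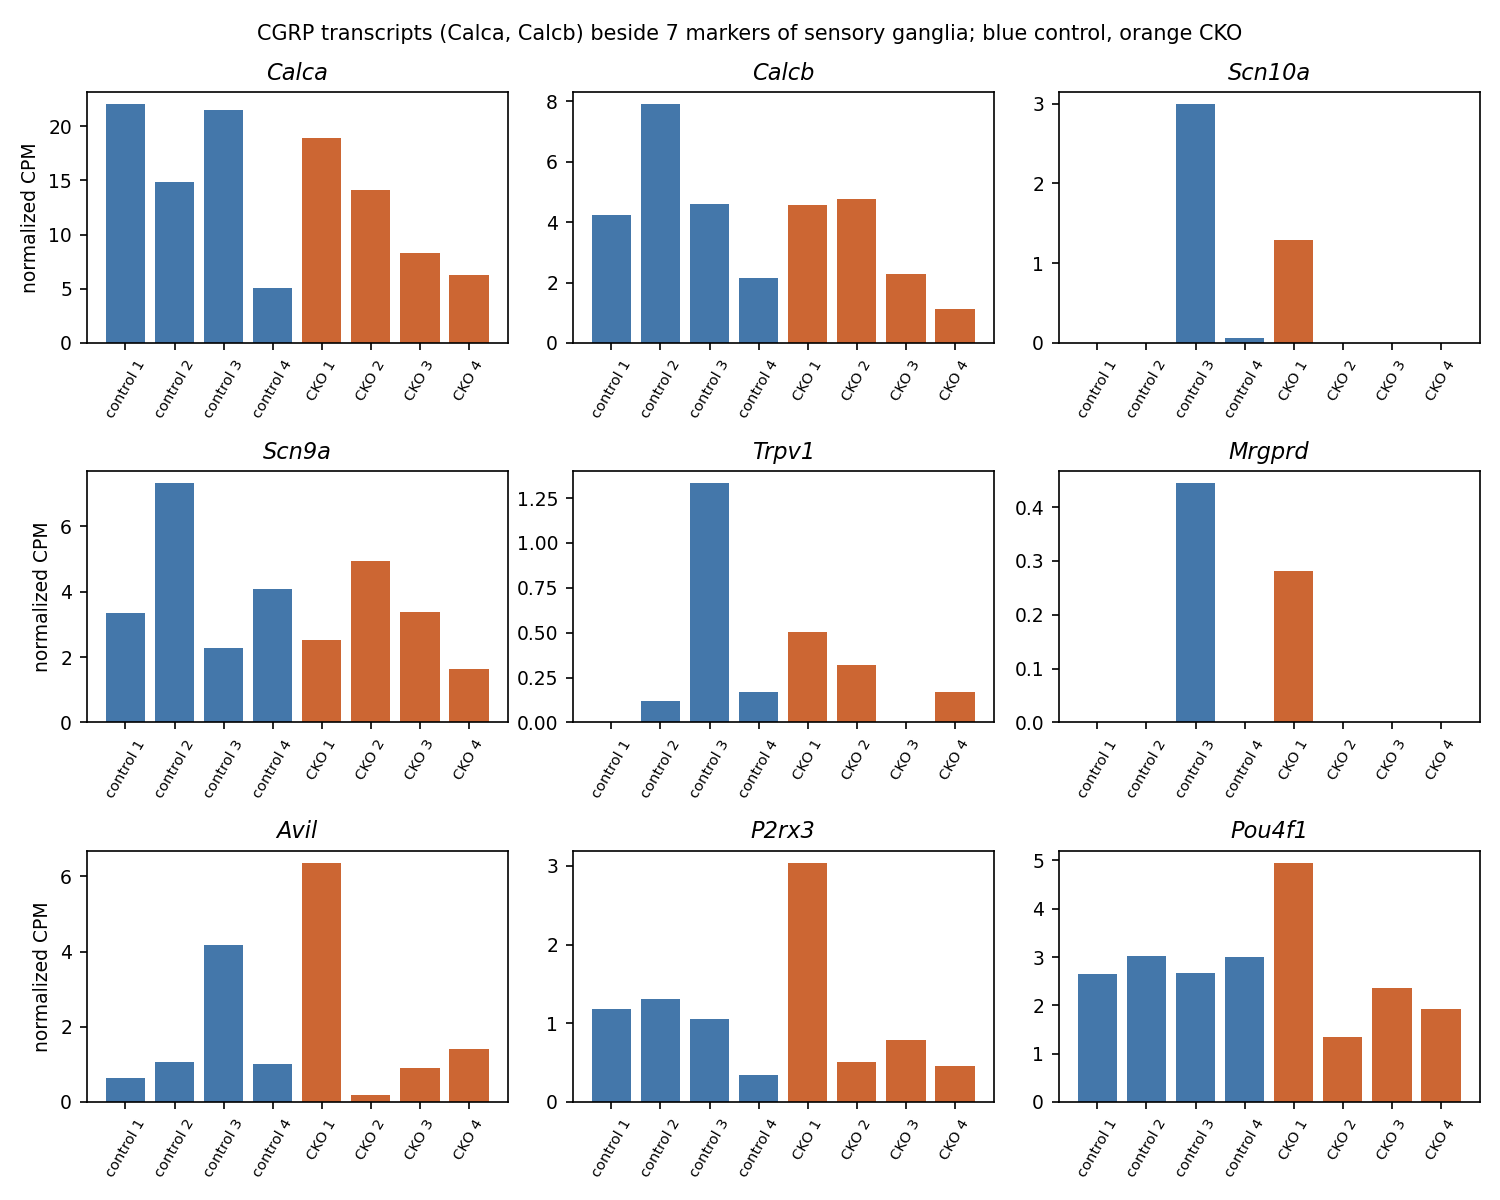
Normalized CPM (y axis, bars from 0) in each library (x axis; control blue, CKO orange) of Calca, Calcb and each of the 7 ganglion markers. Scn10a reaches 3.00 CPM in control 3, 1.29 CPM in CKO 1 and at most 0.057 CPM elsewhere, Scn9a is highest in control 2 at 7.31 CPM, and Calca is at 22.0 CPM in control 1.

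Sst and Npy are genes of dorsal horn interneurons, and the codons of somatostatin-14 (GENCODE M21 on GRCm38, 23889732 to 23889779) are given in capitals as the end of the Sst precursor. Sst (ENSMUSG00000004366, chromosome 16, 23889573 to 23890958, minus strand) encodes somatostatin, found in excitatory interneurons of the superficial dorsal horn and in cells that contact the cerebrospinal fluid. It had 32.1, 31.2, 21.1 and 53.8 CPM in the control libraries, against 27.8, 27.0, 38.6 and 29.9 CPM in the CKO libraries. Control 4 was the highest library and control 3 the lowest, and the CKO libraries lay between them. The means were 34.6 ± 13.8 and 30.8 ± 5.34 CPM (SD, n = 4), a log2 fold change of -0.17 (SE 0.26, interval -0.73 to 0.40, edgeR adjusted p = 1.00), which became 0.14 without control 4. The 4 markers of cerebrospinal fluid-contacting neurons summed to 5.63 to 11.8 CPM for control and 8.12 to 10.5 CPM for CKO.
Sst somatostatin-14: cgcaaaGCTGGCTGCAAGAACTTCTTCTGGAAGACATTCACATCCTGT

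Npy (ENSMUSG00000029819, chromosome 6, 49822710 to 49829507, plus strand), the precursor of neuropeptide Y, which inhibits pain and itch pathways from inhibitory interneurons, was among the steadiest of the 10. It had 16.1, 13.1, 14.3 and 16.7 CPM in the control libraries, against 10.9, 16.7, 19.9 and 15.8 CPM in the CKO libraries. CKO 1 was the lowest and CKO 3 the highest library, so the control libraries lay within the CKO range. It differed by a log2 fold change of 0.07 (SE 0.20, interval -0.37 to 0.51, edgeR adjusted p = 1.00), with a coefficient of variation over all libraries of 17.5%, above that of 39.5% of 5190 genes of like level. Without CKO 3 the log2 fold change was -0.06.

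Gal and Vip are known for rising in sensory neurons whose axons are cut. Gal (ENSMUSG00000024907, chromosome 19, 3409919 to 3414472, minus strand) encodes galanin, and had 9.87, 11.7, 12.3 and 8.91 CPM in the control libraries, against 8.27, 12.9, 12.6 and 7.89 CPM in the CKO libraries. In each genotype libraries 2 and 3 were higher and 1 and 4 lower. The means of 10.7 ± 1.58 and 10.4 ± 2.70 CPM (SD, n = 4) differed by a log2 fold change of -0.04 (SE 0.22, interval -0.53 to 0.45, edgeR adjusted p = 1.00), whose sign changed when control 2, control 3, CKO 1 or CKO 4 was left out. Vip (ENSMUSG00000019772, chromosome 10, 5639218 to 5647617, plus strand) encodes vasoactive intestinal peptide and rested on 10 to 66 reads per library. It had 14, 66, 38 and 22 reads in control and 25, 31, 30 and 10 in CKO. Control 2 was the highest library at 3.92 CPM, and CKO 4 the lowest at 0.564 CPM. The log2 fold change of Vip was -0.52 (SE 0.52, interval -1.66 to 0.62, edgeR adjusted p = 1.00), -0.01 without control 2, and 0.26 without both control 2 and CKO 4.

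**Figure D3:**
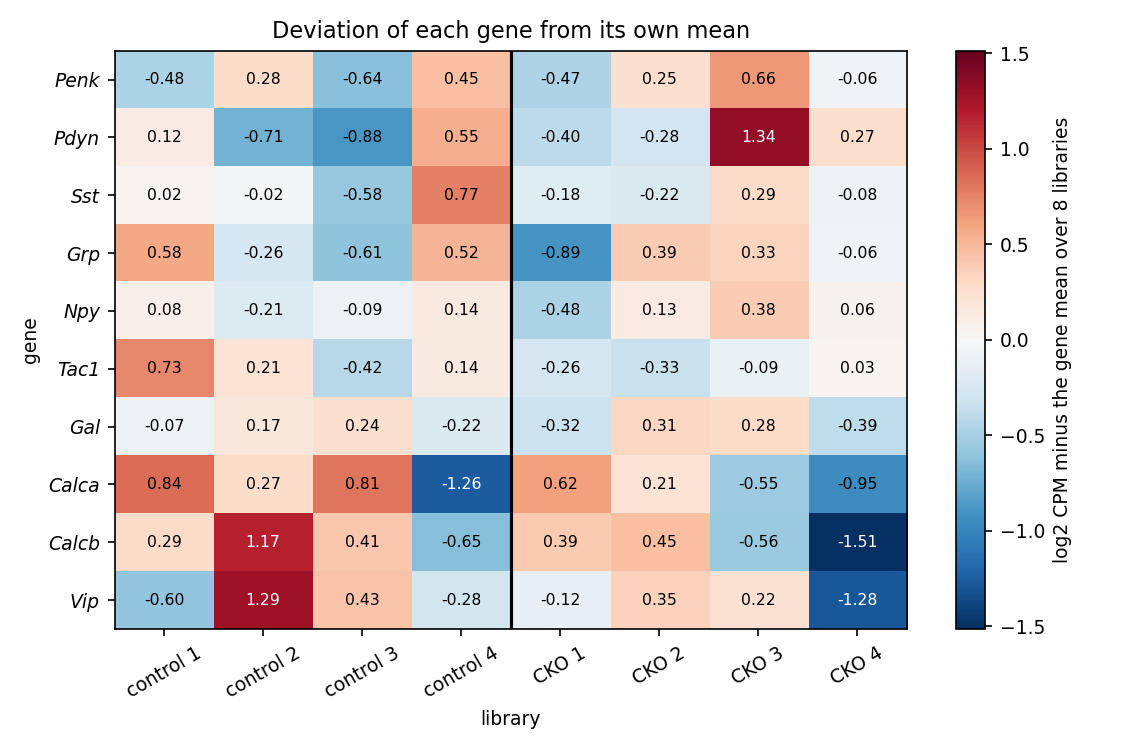
Log2 CPM of each gene (rows) in each library (columns) minus the gene's mean over the 8 libraries, printed in each cell; red is above and blue below the mean, and the line parts control from CKO. Calca is at 0.84 in control 1 and -1.26 in control 4, while Pdyn is at 1.34 in CKO 3.

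Sst, Vip, Tac1 and Calca have a cyclic AMP response element or its core just before the RefSeq start of transcription, which the choice of genes did not use. The table of RefSeq promoters (GRCm38.p6, 250 bases before to 50 after each start) held 8 entries for 7 of the genes, Tac1, Pdyn, Calca, Gal, Npy, Sst and Vip. Searched on both strands, the full element TGACGTCA, which contains the core motif CGTCA on each strand, was in 1 of 8, that of Sst, and in 1.79% of all 32851 promoters. The core motif CGTCA was in 5 of 8 entries, those of Tac1, Calca, Gal, Sst and Vip, against 20.8% of all, the AP-1 motif TGANTCA in 0 of 8 against 7.81%, and TATAAA in 1 of 8, that of Vip, against 13.6%. A match describes letters and not a bound site. The last 150 bases before the RefSeq start are shown for those with the core motif before the start, with the element or core motif in capitals, at chr16:23890845-23890994 (minus strand) for Sst, chr10:5639068-5639217 (plus) for Vip, chr6:7554911-7555060 (plus) for Tac1 and chr7:114636358-114636507 (minus) for Calca. The deposited table lets Sst begin at 23890958, inside the window shown, and Tac1 at 7554879, before the whole window shown. By those starts the marked bases of Sst and Tac1 lie inside the gene and not before it.
Sst: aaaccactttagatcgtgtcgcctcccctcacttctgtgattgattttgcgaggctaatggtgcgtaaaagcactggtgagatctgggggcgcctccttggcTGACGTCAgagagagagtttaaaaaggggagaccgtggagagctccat
Vip: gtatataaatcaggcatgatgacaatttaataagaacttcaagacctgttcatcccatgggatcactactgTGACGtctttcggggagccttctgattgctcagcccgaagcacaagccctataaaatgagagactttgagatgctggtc
Tac1: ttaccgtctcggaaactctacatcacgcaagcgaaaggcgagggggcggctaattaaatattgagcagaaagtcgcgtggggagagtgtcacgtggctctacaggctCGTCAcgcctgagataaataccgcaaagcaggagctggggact
Calca: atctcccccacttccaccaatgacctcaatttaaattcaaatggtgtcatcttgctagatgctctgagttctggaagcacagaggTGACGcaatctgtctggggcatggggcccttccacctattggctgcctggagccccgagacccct

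Counted from the RefSeq start, the full element of Sst ends at base -41, and the nearest core motifs end at -39 in Tac1, -61 in Calca and -75 in Vip. Over the libraries, Sst was highest and Calca lowest in control 4, and Tac1 was highest in control 1, where Vip was lowest of its group.

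Grp (ENSMUSG00000024517, chromosome 18, 65872820 to 65886579, plus strand) encodes gastrin-releasing peptide, which conveys itch from dorsal horn interneurons to neurons with the receptor Grpr. It had 8.62, 4.76, 3.72 and 8.23 CPM in the control libraries, against 3.04, 7.51, 7.23 and 5.47 CPM in the CKO libraries. Values near 8 and values under 4 occurred among the controls, and the CKO libraries covered nearly the same range from CKO 1 upward. The means were 6.33 ± 2.46 and 5.81 ± 2.06 CPM (SD, n = 4), a log2 fold change of -0.12 (SE 0.35, interval -0.90 to 0.65, edgeR adjusted p = 1.00). Without control 1, control 4 or CKO 1 it was 0.06, 0.04 and 0.09. GENCODE M21 places an antisense gene over Grp, and reads of both could not be told apart where strand was not used in counting. The deposited counts hold no gene under that antisense gene's GENCODE name, so its level is not given.

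**Figure D4:**
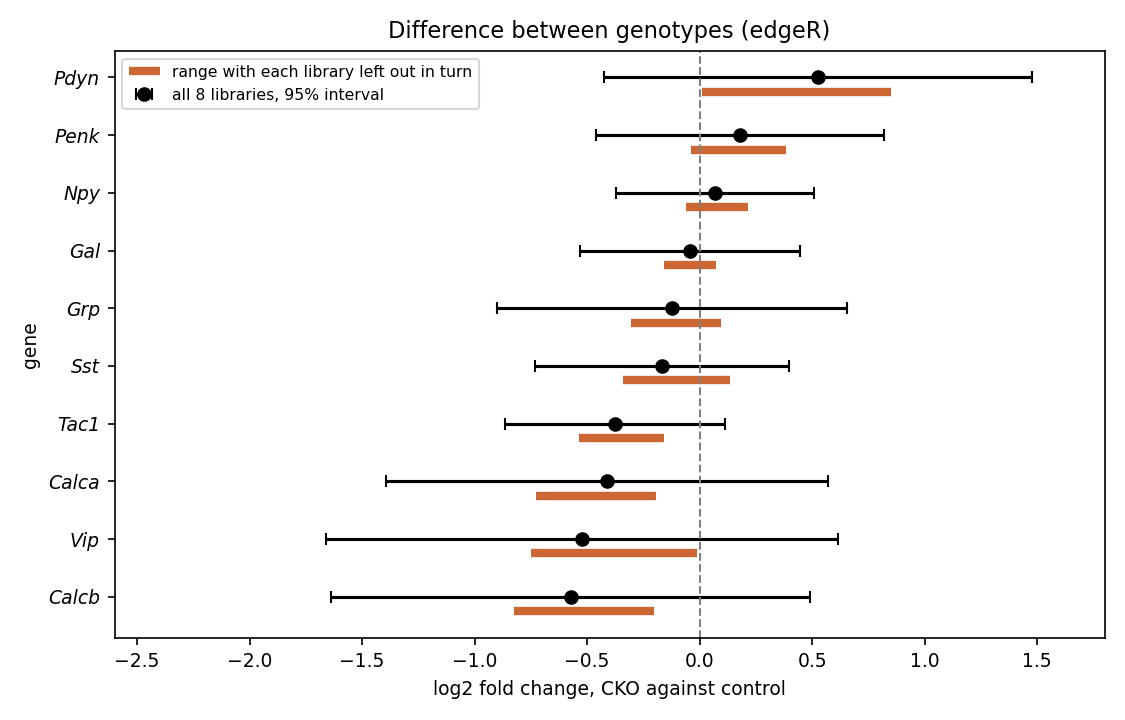
Log2 fold change of CKO against control (x axis) of each gene (y axis), as points with 95% intervals from edgeR, above bars that span the values with each library left out in turn. All 10 intervals include 0, and the bars of Penk, Npy, Gal, Grp and Sst cross it.

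No pair of the genes passed a correction for varying together. Over the 45 pairs of the 10 genes, Pearson's r of log2 CPM across the 8 libraries was positive in 25. An exact permutation test over 40320 pairings gave an unadjusted p under 0.05 for 8 pairs and an adjusted p under 0.05 for 0. The share among pairs of all genes tested was not computed, so the 8 are no result particular to these genes. Npy and Grp had the smallest p, with r = 0.83 (exact permutation p = 0.0079, adjusted 0.255) and Spearman's rho = 0.76 (exact permutation p = 0.037, adjusted 0.276). Their r was 0.80 without CKO 1 and CKO 3, the libraries farthest from the median of Npy, and 0.64 without control 3 and CKO 1. It was 0.87 without control 1 and 0.85 for deviations from the genotype means. Pdyn and Npy had r = 0.75 (exact permutation p = 0.034, adjusted 0.255) and rho = 0.81 (exact permutation p = 0.022, adjusted 0.276), with r = 0.65 without control 3 and CKO 3.

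The pairs that involve the CGRP genes had r of both signs. Calca and Calcb had r = 0.79 (exact permutation p = 0.018, adjusted 0.255) and rho = 0.55 (exact permutation p = 0.171, adjusted 0.421). Without control 4 and CKO 4, where both were low and Calca was farthest from its median, r was 0.52. Leaving out the extreme libraries narrows the range and can lower r by itself, so what the relation rests on was not tested. Without control 3 and CKO 1, the libraries with the highest summed level of ganglion markers in their groups, it was 0.78. Calcb and Vip had r = 0.80 (exact permutation p = 0.017, adjusted 0.255) and rho = 0.86 (exact permutation p = 0.011, adjusted 0.276). Their r was 0.90 without control 1, 0.82 without control 3 and CKO 1, and 0.54 without control 4 and CKO 4. Calca and Sst had r = -0.73 (exact permutation p = 0.028, adjusted 0.255) and rho = -0.45 (exact permutation p = 0.268, adjusted 0.523), and r = -0.68 without the same pair of libraries. As a ratio, Calca was 43.4, 17.2, 47.0 and 5.20 CPM per 100 CPM of Penk in control libraries 1 to 4 and 36.8, 16.7, 7.41 and 9.18 in CKO libraries 1 to 4. The lowest and the highest of these ratios were both from control libraries.

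**Figure D5:**
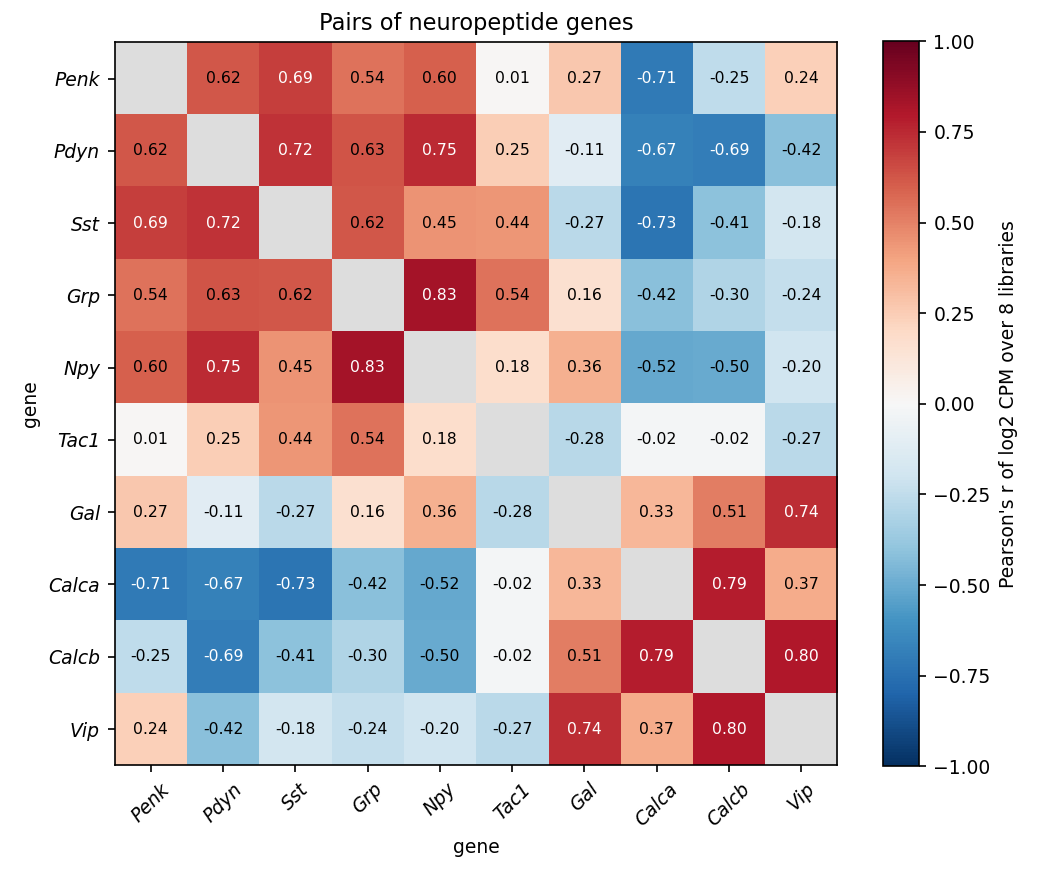
Pearson's r of log2 CPM over the 8 libraries for each pair of genes (both axes list the genes), printed in each cell from blue (-1) to red (1), with the diagonal in grey. Penk, Pdyn, Sst, Grp and Npy lie beside each other at the top, and Calca, Calcb and Vip at the bottom; Calca against Sst is -0.73, and no pair passed adjustment over the 45.

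Genes whose pattern over the 8 libraries was most like that of each neuropeptide gene were found by the mean absolute difference of log2 CPM, each gene centred on its own mean, among 15493 tested genes of at least 1 CPM. They are the smallest of many differences, and whether they are closer than chance gives was not tested. Pnoc, the precursor of the opioid-like peptide nociceptin, was nearest to Penk, with a difference of 0.11 where Penk itself deviated from its mean by 0.41; 4930451G09Rik (0.13) and 4930578M01Rik (0.13) followed. Pnoc had 3.96, 6.54, 3.55 and 6.81 CPM in the control libraries, against 5.23, 6.35, 7.53 and 5.36 CPM in the CKO libraries, low in control 1 and control 3 and highest in CKO 3, as Penk was. Nearest to Gal, at 0.10 and 0.12, were Lamb3, a laminin subunit gene, and Gadd45a, a DNA damage and axotomy response gene, and then Ccdc32 at 0.14. Sst was most like Adgrg1 (0.12), Cbln1 (0.13), which encodes a synapse organiser, and Itgae (0.13). Npy was nearest to Tmem63c (0.08), Mpzl1 (0.09) and Mri1 (0.09), Tac1 to Mboat2 (0.09), Rbm26 (0.09) and Myo6 (0.09), and Grp to Rnf122 (0.13), Fam216b (0.14) and Chst3 (0.17).

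For genes of wider spread the nearest patterns were farther away. The difference is not scaled by a gene's own spread, so this larger value is no result by itself. Pdyn, Vip and Calcb deviated from their means by 0.57, 0.57 and 0.68, against 0.27 for Sst and 0.25 for Gal. The 3 nearest to Pdyn were Wisp2 (0.21), Susd5 (0.29) and Slc24a4 (0.32), and those to Vip Slc27a2 (0.24), Gm13446 (0.25) and Slc35f3 (0.27). Calca was nearest to Ptger2 (0.35), a prostaglandin E2 receptor gene, Ibsp (0.37) and Lingo2 (0.39), against its own deviation of 0.69. Calcb was nearest to C130036L24Rik, Arhgef33 and Gm11837, with 0.34 to 0.35 each.

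The machinery that makes, receives and removes these peptides was read from lists of genes. Of 15 peptide processing and granule genes, all tested, 0 passed edgeR's adjusted threshold and 0 had an unadjusted p under 0.05. CKO had the lower mean for 11 and the higher for 4, and their log2 fold changes had a median of -0.18, where that of all genes tested was -0.01. Cpe, the carboxypeptidase that trims the cut peptides, was the highest at 397 ± 74.5 FPKM (SD, n = 8), ahead of Pcsk1n, an inhibitor of prohormone convertase 1, at 171 ± 51.9 FPKM and the granin Scg3 at 51.0 ± 8.14 FPKM. The smallest unadjusted p belonged to Scg5, the chaperone of prohormone convertase 2, with group means of 90.1 ± 43.9 CPM for control and 57.1 ± 21.0 CPM for CKO (SD, n = 4), the convertase gene Pcsk1, at 11.1 ± 4.33 and 7.36 ± 2.16 CPM, and Cadps, which primes granules for release, at 90.2 ± 38.9 and 64.2 ± 7.35 CPM. Their log2 fold changes were -0.66, -0.59 and -0.49, with edgeR adjusted p of 1.00. Scg5, Pcsk1 and Cpe were highest in control 1, and without it Scg5 was at -0.31, Pcsk1 at -0.37, Cadps at -0.39 and Cpe at -0.04. The 8 neuron markers had a median of -0.20 and the 10 dorsal horn markers, of which 9 were tested, one of -0.28, and their part in the values above was not tested.

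Besides the CGRP receptor genes, the receptor genes averaged at most 1.61 FPKM. Of 22 receptor genes 12 were tested, 0 passed, and CKO had the lower mean for 11 and the higher for 1, Galr3, at a log2 fold change of 0.48. No receptor gene had an unadjusted p under 0.05 in edgeR, and the log2 fold changes had a median of -0.29. The CGRP receptor is a pair of Calcrl and the accessory protein Ramp1, and these were the highest of the list, at 5.54 ± 1.93 and 37.8 ± 6.27 FPKM (SD, n = 8). Ramp1 averaged 117 ± 18.6 CPM for control and 114 ± 22.7 CPM for CKO (SD, n = 4), a log2 fold change of -0.04 (SE 0.18), and Calcrl, which vessels also express as the adrenomedullin receptor, one of -0.25 (SE 0.28). Calcrl was highest in control 1, and without that library its log2 fold change was 0.11. Sstr4, the third by level at 1.61 ± 1.65 FPKM, varied by as much as its mean. Npy1r, Sstr2 and Npy5r had the smallest unadjusted p, with log2 fold changes of -0.46 (SE 0.34), -0.44 (SE 0.36) and -0.60 (SE 0.52), and Npy5r was at -0.26 without control 1. The mu opioid receptor gene Oprm1 had 49 counts over all 8 libraries, the delta receptor gene Oprd1 64 and the itch receptor gene Grpr 25, too few to be tested, and the substance P receptor gene Tacr1 had 337 counts and a log2 fold change of -0.22 (SE 0.37).

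Peptide-degrading enzymes divided evenly. Of 10 genes tested in edgeR, 0 passed and 1, Mme, had an unadjusted p under 0.05, beside a background of 1.42%. Means of 5 were higher and 5 lower in CKO, and the median of their log2 fold changes was 0.00. Anpep, Npepps and Lnpep, all aminopeptidases, were highest, at 25.2 ± 5.98, 14.3 ± 1.12 and 6.50 ± 1.15 FPKM (SD, n = 8). Mme, the enkephalin- and substance P-degrading neprilysin, averaged 12.4 ± 2.73 CPM for control and 8.69 ± 2.03 CPM for CKO (SD, n = 4), a log2 fold change of -0.51 (SE 0.23) with an edgeR unadjusted p of 0.049 and an adjusted p of 1.00. Mme was highest in control 1, and without that library its log2 fold change was -0.37 (edgeR unadjusted p = 0.123). No other library was left out for Mme, so whether the unadjusted call rests on control 1 more than on others was not tested. Prep, the prolyl endopeptidase, and Ece2 followed with log2 fold changes of 0.34 (SE 0.20) and -0.64 (SE 0.41).

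Among 20 other neuropeptide precursor genes 13 were tested, of which 0 passed in edgeR and 2, Trh and Nmu, had an unadjusted p under 0.05, beside a background of 1.42%. CKO had the higher mean for 6 and the lower for 7, and the log2 fold changes had a median of -0.20. Adcyap1, the precursor of PACAP, Nts, that of neurotensin, and Cck, that of cholecystokinin, were highest, at 10.99 ± 3.01, 9.74 ± 4.17 and 7.78 ± 3.65 FPKM (SD, n = 8). Nmu, the neuromedin U precursor, was the only one of the 13 whose groups did not overlap, where the background was 1.19%. It had 2.09, 3.86, 2.11 and 5.90 CPM in the control libraries, against 1.12, 1.73, 1.81 and 1.92 CPM in the CKO libraries, for a log2 fold change of -1.08 (SE 0.39, edgeR unadjusted p = 0.019, adjusted p = 1.00). Control 4 and control 2 were well above the rest, and control 1 and control 3 lay just above the highest CKO library. Trh, the thyrotropin-releasing hormone precursor, had 1.67, 0.535, 1.05 and 1.82 CPM in the control libraries, against 0.562, 0.192, 0.603 and 0.338 CPM in the CKO libraries, for a log2 fold change of -1.56 (SE 0.52, edgeR unadjusted p = 0.013, adjusted p = 1.00), and Tac2, a tachykinin precursor, one of -0.62 (SE 0.38). Control 2 had less Trh than CKO 1 and CKO 3, so the groups overlapped. Trh rested on only 113 counts over all 8 libraries, fewer than the 236 of Vip. Without control 1 the log2 fold change of Nmu was -1.26 and that of Trh -1.40.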

How the data were processed

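RNA of injured spinal cord was sequenced in 4 control (Tia1f/f) and 4 CKO (Tia1Nestin-CKO) samples. Per the labels' protocols, TRIzol was used to isolate RNA and an NEBNext Ultra kit to prepare libraries. Tools listed without roles in the submitters' processing notes are featureCounts 1.5.0-p3, HISAT2 2.0.5, DESeq2 1.20.0, CASAVA 1.8 and fastp, and a human build is listed, while the deposited tables hold mouse genes at GRCm38 coordinates. The authors deposited raw read counts per gene and FPKM per gene, which divide counts by gene length and library size. Whether strand was used, and how reads with several matches were treated, is not given in the sources used here. Total counts ran from 14752733 to 17802884 per library.

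Genes were kept by filterByExpr (minimum count 10, minimum total 15), scaled by TMM and tested with edgeR 4.0.16 (R 4.3.3; quasi-likelihood, robust, genotype as the only term), with Benjamini-Hochberg adjustment over all 16537 genes and a threshold of 0.05. Standard errors were derived from the fold change and its F value, with intervals of 95%. Pairwise relations used log2 CPM with a prior count of 2. The fit was run on simulated data, where many of the 2-fold changes put in were not recovered at the threshold. A gene that was not called may therefore still differ. The 10 genes and all lists were chosen with earlier results of these data known. All 10 genes were named; from each list the 3 genes of highest mean FPKM and the 3 of smallest unadjusted p were named, and for each of the 10 the 3 genes of most like pattern. Scn10a, Scn9a, Trpv1, P2rx3, Chat, Slc18a3, Mnx1, Slc5a7, Prph, Isl1, Oprm1, Oprd1, Grpr, Tacr1, Galr3 and Saa3 were added after their values were seen. So were the ganglion markers Avil, Mrgprd and Pou4f1. Of the ganglion marker list, 1 gene is not reported here and was left out of all its values. DESeq2 1.42.0, limma 3.58.1 and the other alternatives are given in the closing section. Same-numbered libraries did not vary together, so the numbers were not taken as pairs.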

Additional observations from a re-analysis of the deposited data

Results flagged for a closer look

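A library was listed where its gap to the nearest other library of its group exceeded Dixon's 95% critical value of 0.829 for 4 samples. In all, 122 groups of values were examined, 9 were listed, and chance lists about 1 in 20. Scn10a, Trpv1, Avil and Chat were put among the values examined after being seen. Their listing is therefore no test, and the 9 cannot be set against that rate. None of the 10 neuropeptide genes was listed in either genotype. The ganglion marker Scn10a stood apart in control 3 (3.00 CPM, 0 to 0.057 in the other controls) and in CKO 1 (1.29 CPM, 0 in the other CKO libraries). Trpv1 (1.33 CPM) and Avil (4.16 CPM) stood apart in control 3 as well. The summed level of the ganglion markers stood apart in CKO 1 (18.9 CPM, 5.58 to 7.41 in the others). Chat stood apart in control 2 (5.17 CPM, 2.33 to 2.57 in the others). The summed level of the peptide processing and granule genes stood apart in CKO 3 (2348 CPM, 1984 to 1993 in the others), the library with the most Penk and Pdyn. The summed level of 7 neutrophil genes stood apart in CKO 2 (1866 CPM, 522 to 660 in the others). The number of genes with counts stood apart in control 1 (18884, 22826 to 23414 in the other controls).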

How the results depend on the processing

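Of 180 fold changes of the 10 genes under the alternatives, 166 kept their direction and 14 reversed, and none passed an adjusted p of 0.05. Over the 8 fits that each leave out 1 library, the log2 fold change ran from -0.54 to -0.16 for Tac1, -0.039 to 0.38 for Penk, 0.01 to 0.85 for Pdyn, -0.73 to -0.19 for Calca, -0.83 to -0.20 for Calcb, -0.16 to 0.071 for Gal, -0.059 to 0.21 for Npy, -0.34 to 0.14 for Sst, -0.75 to -0.01 for Vip and -0.31 to 0.093 for Grp. Without control 2 and CKO 4 together, Calcb (0.077), Gal (0.12) and Vip (0.26) reversed. Control 2 was the highest and CKO 4 the lowest library of Calcb and Vip, and Gal was lowest in CKO 4. Leaving out such libraries raises the fold change by itself. Without control 3 and CKO 1, an alternative chosen after seeing the data, Gal (0.13) reversed. The cause of these reversals was not tested. Of the 24 genes named from the lists, refitted without control 1 as an alternative also chosen after seeing the data, Calcrl (0.11), Pcsk1n (-0.16), Anpep (-0.047) and Npepps (0.00039) reversed. DESeq2 size factors, no filter, a filter of 1 CPM in 4 libraries, limma-trend on log2(FPKM + 0.1) or log2(FPKM + 1), limma-voom and the DESeq2 Wald test reversed none of the 10. Over all genes the count of calls was 0 under each alternative other than the DESeq2 Wald test, which called 1 gene (Saa3), and 0 genes of the other precursor, receptor and processing lists were called under any. With the replicate block, Tac1 was -0.33, Calca -0.34 and Calcb -0.63, and 0 genes were called; deviations of same-numbered libraries correlated at -0.06, 0.05, -0.09 and -0.33 over genes, so the numbers show no pairing. Vip rests on 10 to 66 reads per library.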
